A study of Homo sapiens with 2 samples.

Results

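Stretches of the NB4 genome in which 8 or more peaks of PML-RARA antibody signal follow each other at short distance are described here. NB4 is an established human cell line of acute promyelocytic leukemia that carries the PML-RARA fusion gene. Cells grown in serum-supplemented medium, with no treatment named in the labels, were profiled by CUT&Tag with an antibody named for PML-RARA in 2 replicates, which form the study's only group. In CUT&Tag an antibody brings a transposase to chromatin, and the enzyme inserts sequencing adapters beside the antibody. The authors deposited 1 peak list merged from both replicates, with no value per replicate, and no control antibody was analysed here. Whether the replicates were separate cultures is not stated in the labels. The list holds no expression, so the label of the cell line could not be set against marker levels.

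The peaks were chosen by position alone. Peaks on chromosomes 1 to 22 and X were sorted by start, neighbours with a gap of at most 10 kb were joined, and every peak of a joined run of 8 or more was kept. This gave 2828 peaks in 245 runs, out of 20072 peaks on those chromosomes and 20085 in the whole list. They were 14.1% of the peaks, and their runs were 7.04% of the 3481 runs that held 2 or more peaks. Number, spacing and span of the peaks are therefore set by the choice, and are given as a description with no test. Peaks of 1 list share their libraries and are not replicates, so the signal values below also carry no test and no spread between replicates.

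PML-RARA joins PML, the organiser of nuclear bodies, to RARA, a nuclear receptor for retinoic acid that binds DNA together with RXR partners. The fusion is known as a repressor of myeloid differentiation genes, and it is known to meet the ETS factor PU.1, encoded by SPI1, at many of its sites. An antibody that recognises the fusion may also meet the normal PML or RARA protein, and the list does not tell them apart. In chromatin profiles, rows of neighbouring peaks are well known from clusters of enhancers and from regions where genes lie densely.

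Sequence could be shown where a gene start lay inside a run. The gene models at hand on the build of the peaks, hg19, were software samples of 427 genes, and 10 of these genes (2.34%) started inside a run of 8 or more peaks. The exact 95% binomial interval of that share is 1.13% to 4.26%, which covers counting error only, and the sample is no random draw. The promoters below, from RefSeq on GRCh38.p14, run from 250 bases before to 50 bases after the gene start and are printed 5′ to 3′ along the gene. They belong to 4 of the 7 genes whose start lay under a peak: ADAM8 has the strongest such peak, RELT holds many GC boxes, NFKB2 holds a pair of ETS motifs, and H4C2 holds the retinoid receptor core. Capitals mark matches on either strand to AGGTCA (retinoid receptor core), GGTTCA (a variant of that core), GGAAGT (ETS factors), TGTGGT (RUNX factors) or GGGCGG (GC box). On GRCh38.p14 they lie at chr10:133276819-133277118 (minus strand), chr11:73376149-73376448 (plus strand), chr10:102393860-102394159 (plus strand) and chr6:26027234-26027533 (minus strand); these positions are not on the build of the peaks, and the start in the hg19 model may differ.
ADAM8: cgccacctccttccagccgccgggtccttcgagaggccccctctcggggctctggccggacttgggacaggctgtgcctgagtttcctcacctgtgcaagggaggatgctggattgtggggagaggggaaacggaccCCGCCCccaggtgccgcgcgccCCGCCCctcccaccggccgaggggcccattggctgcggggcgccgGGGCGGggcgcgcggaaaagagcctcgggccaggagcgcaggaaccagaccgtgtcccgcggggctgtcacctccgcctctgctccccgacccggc
RELT: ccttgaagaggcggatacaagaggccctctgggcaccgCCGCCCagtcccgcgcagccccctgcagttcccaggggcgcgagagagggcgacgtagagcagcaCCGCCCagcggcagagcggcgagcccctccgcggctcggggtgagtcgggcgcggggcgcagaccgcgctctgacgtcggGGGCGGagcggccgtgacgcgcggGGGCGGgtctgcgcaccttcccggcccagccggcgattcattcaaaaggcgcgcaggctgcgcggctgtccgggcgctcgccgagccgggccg
NFKB2: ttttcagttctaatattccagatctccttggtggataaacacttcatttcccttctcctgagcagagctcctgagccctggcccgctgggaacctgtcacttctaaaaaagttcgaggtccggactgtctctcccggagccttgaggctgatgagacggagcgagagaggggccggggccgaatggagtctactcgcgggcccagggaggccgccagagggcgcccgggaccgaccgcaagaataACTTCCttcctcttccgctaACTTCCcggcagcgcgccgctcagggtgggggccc
H4C2: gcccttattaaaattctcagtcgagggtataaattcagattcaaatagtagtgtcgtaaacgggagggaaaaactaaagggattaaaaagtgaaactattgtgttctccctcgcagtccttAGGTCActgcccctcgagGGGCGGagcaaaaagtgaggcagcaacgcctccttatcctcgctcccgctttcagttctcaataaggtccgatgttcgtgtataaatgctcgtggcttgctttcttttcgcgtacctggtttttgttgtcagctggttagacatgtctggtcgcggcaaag

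Of the 10 promoters of genes that started inside a run, most held a GC box, and only H4C2 held the retinoid receptor core. These promoters are placed at the GRCh38 start, which can differ from the hg19 start found in the run. PLEKHG5 was 24489 bp long in the hg19 model and 52971 bp on GRCh38, and MAPKAPK3 32167 and 37772 bp. GGGCGG was found in 7 of the 10, against 60.8% of the 314 sampled genes with a promoter and 45.0% of all 35116 promoters of the same length. AGGTCA was in 1 of the 10, against 12.4% of sampled and 13.8% of all promoters, and its variant GGTTCA in 0, against 4.14% and 8.62%. GGAAGT was in 3 of the 10 (24.2% of sampled, 22.8% of all) and TGTGGT in 0 (11.5% and 13.1%). The median GC content was 66.8% in the 10 promoters and 58.7% in all, and the median number of CpG pairs was 18 and 14. These medians were not taken over the 314 sampled genes, so a property of the sample cannot be told apart from one of the runs. A match describes letters only, and a missing match says that these letters are not in this window of 300 bases. Sequence under the peaks themselves was not used here.

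At 10q26.3 the start of ADAM8, a surface metalloprotease of leukocytes, lay under 1 of the strong peaks of its run. This run, chr10:135027984-135143725, held 23 peaks with a summed total signal of 730096. Total signal is the coverage summed over the bases of a peak, as the peak caller of the authors reports it, and maximum signal is the highest coverage in the peak. The hg19 start of ADAM8, at 135090372, fell in the peak chr10:135086009-135094595, which had a total of 254232, a maximum of 184 and rank 30 of all peaks by total. A peak at chr10:135070556-135075522 was taller (maximum 244, total 231174), and the peak at chr10:135057959-135060377 had a total of 58244 and a maximum of 128. These were the 3 peaks of the run in the tallest 10% of the list, and together they gave 74.5% of its signal. Of the 23 peaks, 15 had a maximum at or below the list's median of 22. In the gene order of the GRCh38 table ADAM8 lies between VENTX, a homeobox gene, and TUBGCP2, a gene of the gamma-tubulin complex.

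A further 6 sampled genes had a start under a peak of a long run. DYNLT4, a dynein light chain gene in 1p34.1, had the next strongest, with a total of 106682 and a maximum of 140 at chr1:45269375-45275814. The peak over PLEKHG5, a guanine nucleotide exchange factor gene, had a total of 44909 (maximum 51). RELT, a TNF receptor family gene in 11q13.4, had a peak of 31571 (maximum 60) that opens its run of 8. The start of NFKB2, the gene of the NF-kappaB subunit p100/p52, lay under a peak with a total of 17469 and a maximum of 40, the leftmost of 8 in a run of 10q24.32. At MAPKAPK3, a stress kinase gene, the total was 15815 (maximum 28). At the histone gene H4C2, in the histone cluster of 6p22.2, the total was 9411 and the maximum 17. Peaks over these starts thus ranged from position 30 to position 7341 of the list by total signal, so a start inside a long run did not go with a strong peak in each case.

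A start in a gap between peaks of a run was seen for 3 sampled genes. The start of KCNK4, a potassium channel gene in 11q13.1, lay 792 bp from the nearest peak of a run of 20 with a summed total of 560765. KCNK7, of the same channel family and band, started 1985 bp from a peak of a run of 12. CTXN1, a neuronal membrane protein gene in 19p13.2, started 452 bp from a peak of a run of 11. In the whole sample 150 genes (35.1%) had a peak over a start, and 7 of these 150 (4.67%) lay in a long run.

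The 245 runs were short against the chromosomes and varied widely in signal. Their spans had a median of 39391 bp (quartiles 31409 and 50976 bp, range 14459 to 186559 bp). Together they took up 10963 kb, or 0.361% of chromosomes 1 to 22 and X, and peaks covered 41.4% of that length. A run held a median of 10 peaks, and 67 runs held exactly 8, 88 held 12 or more, 17 held 20 or more and 3 held 30 or more. Summed total signal per run had a median of 182219 and ranged from 34466 in 22q13.33 to 2045160 in 19p13.2. The members held 21.2% of the summed total signal of all peaks and 19.2% of the peak bases.

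**Figure D1:**
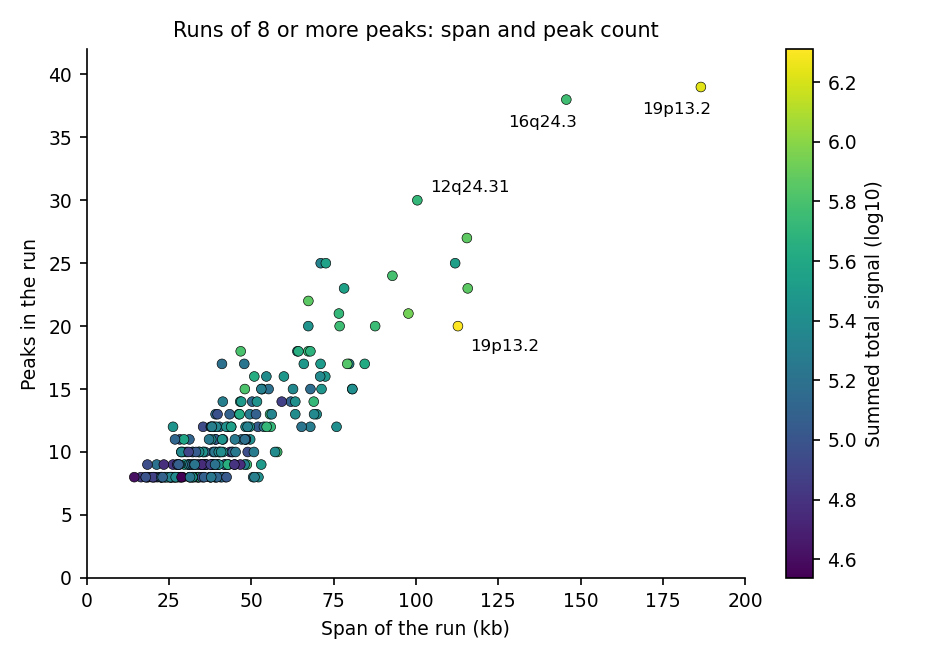
Each of the 245 points is a run of 8 or more peaks, placed by its span in kb and its number of peaks and coloured by the log10 of its summed total signal. Runs of 39 and 38 peaks stand apart at the upper right, while the run with the highest summed signal, 2045160 in 19p13.2, has 20 peaks.

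Peak count and signal went together only loosely. Across the 245 runs, which share their libraries, Spearman's rank correlation between peak count and summed signal was 0.51, and between peak count and the mean coverage inside peaks it was 0.02. Of the 10 runs with the most peaks, 4 were also among the 10 with the highest signal. Those 10 strongest runs held 226 peaks, 7.99% of the members, and 16.0% of the members' signal.

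The strongest run lay in 19p13.2 at chr19:8545334-8658104, with 20 peaks over 112770 bp and the highest signal per kb of span (18136). Its band also holds PRAM1, an adaptor gene of granulocytes named for its regulation by PML-RARA, and MYO1F, a myosin gene of leukocytes. The peak chr19:8553961-8574679 alone had a total of 876984 and a maximum of 830, both the highest of the list's chromosomes. On its left chr19:8549738-8553836 had a total of 307911 and a maximum of 773, and on its right chr19:8575201-8585121 had 325007 and 391. A separate pair stood further right, chr19:8632150-8639403 (total 258891, maximum 432) and chr19:8639669-8644658 (total 138988, maximum 152). These were the 5 peaks of the run above the list's 10% limit for maximum signal, which is 68. Of the 20 peaks, 9 had a maximum of 14 or less, the limit of the lowest 25% of the list.

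The run with the most peaks, 39, also lay in 19p13.2, at chr19:10360818-10547377, and spread its signal more evenly. The band holds the adhesion genes ICAM1, ICAM3, ICAM4 and ICAM5 and the kinase gene TYK2. The summed total was 1704921, of which the strongest peak, chr19:10392738-10407083, gave 18.4% (total 313030, maximum 159). Next came chr19:10526363-10533827 (total 223502, maximum 189), chr19:10378262-10383213 (total 202589, maximum 264) and chr19:10442345-10448016 (total 157849, maximum 237). In all 10 of its 39 peaks were above the 10% limit for maximum signal, more than in any of the other 244 runs, and 16 were at or below the list's median.

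A run of nearly the same count in 16q24.3 was far weaker. At chr16:88742578-88888263 it held 38 peaks over 145685 bp with a summed total of 585881. Its strongest peak, chr16:88763563-88770854, had a total of 96136 and a maximum of 78, and its tallest, chr16:88835897-88838167, a maximum of 107. Only these 2 of the 38 passed the 10% limit, and 26 were at or below the list's median maximum. The band holds PIEZO1, a mechanosensitive channel gene, CDT1, a replication licensing factor gene, and APRT, a purine salvage gene. Another 30 peaks stood at chr12:125159517-125259951 in 12q24.31, with a summed total of 521582. There 22 of 30 peaks were at or below the median maximum, and 3 peaks with maxima of 316, 300 and 153 gave 56.0% of the signal.

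**Figure D2:**
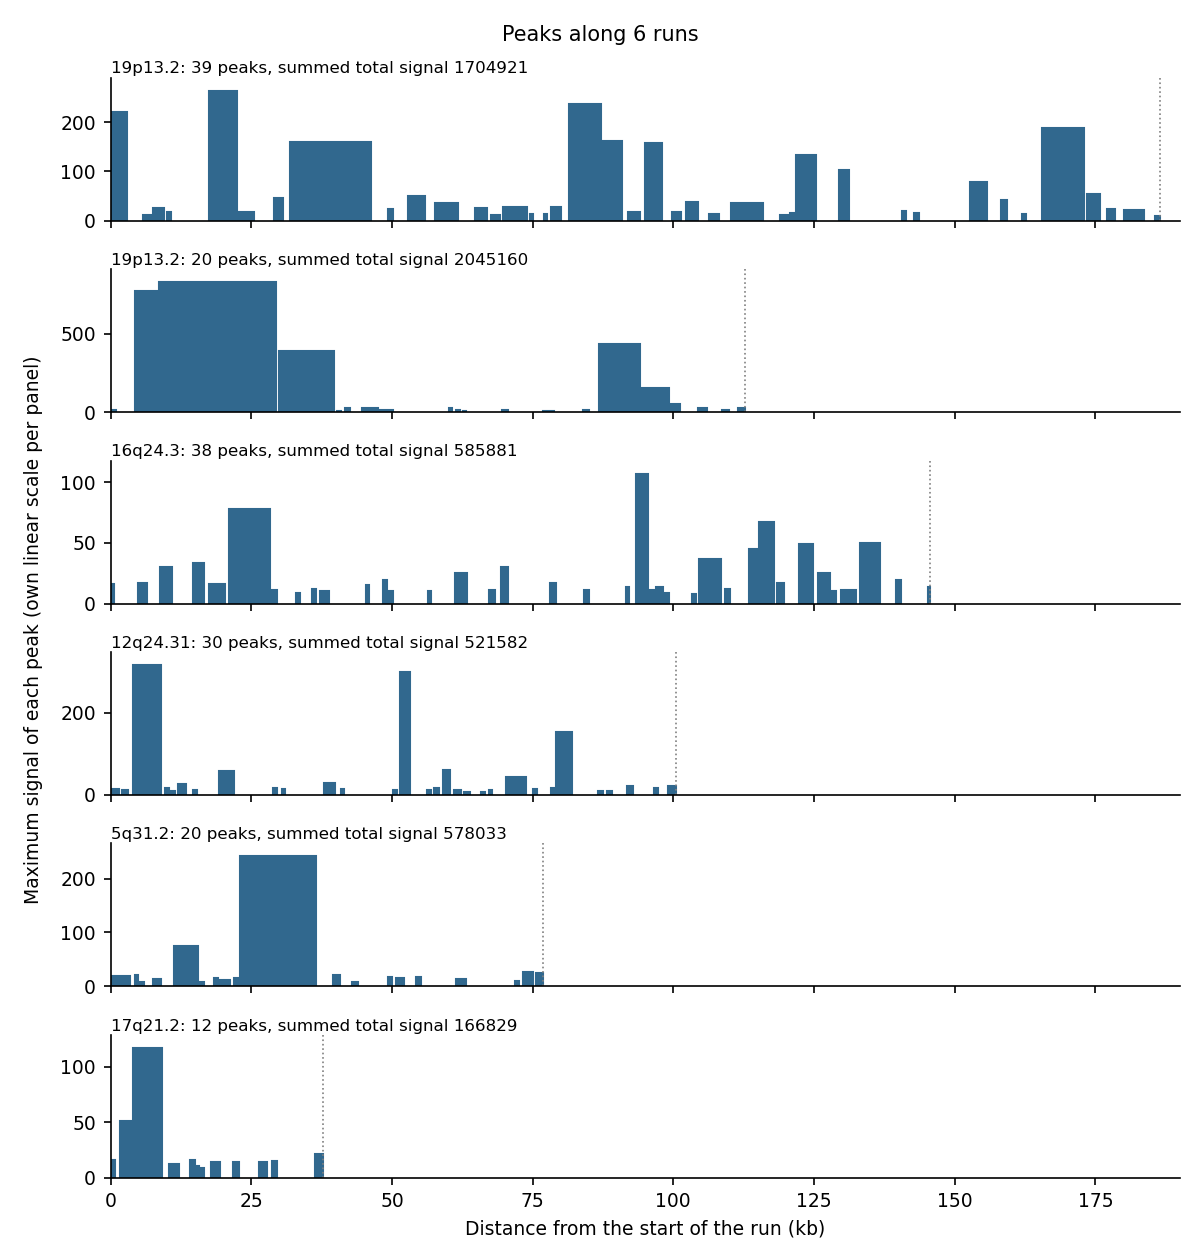
Each panel shows 1 run, with every peak drawn to scale from its start to its end in kb from the start of the run and as high as its maximum signal, on a linear scale of its own. Dotted lines mark the end of the run; in the run of 5q31.2 a single peak gives 70.4% of the summed signal, while in the run of 39 peaks in 19p13.2 the strongest gives 18.4%.

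A few peaks gave most of the signal of a typical run. The strongest peak gave a median of 37.6% of its run's signal (range 15.0% to 87.4%), the 3 strongest gave a median of 71.2%, and a median of 5 peaks reached 80%. In 48 runs a single peak gave more than 50% of the signal, and in 34 runs it gave less than 25%. The strongest peak was more than 5 times the next in 18 runs and more than 2 times the next in 103. It stood at the edge of the run in 45 runs (18.4%), close to the 17.3% of all members that stand at an edge.

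Some runs owed most of their signal to a single peak. In 19p13.2 the peak chr19:10675743-10680720 gave 87.4% of a run of 9 (total 398272, maximum 520), and the other 8 had maxima of 12 to 30. The same band holds CDKN2D, a cell cycle inhibitor gene. In 16q24.3, which holds the co-repressor gene CBFA2T3, chr16:89039087-89046424 gave 85.3% of a run of 8 (total 274168, maximum 247), beside maxima of 9 to 27. In 5q31.2, which holds CXXC5, a retinoid-inducible zinc finger gene, chr5:139037929-139051551 gave 70.4% of a run of 20 (total 406954, maximum 241). Its next strongest peak had a total of 47904, and 16 of the 20 were at or below the list's median maximum.

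Other runs had no dominant peak. The lowest share of a strongest peak, 15.0%, was found in 16q24.3 at chr16:89233027-89268404, in a run of 12 peaks whose tallest had a maximum of 37. A run of 25 in 17q25.3, whose band holds the septin gene SEPTIN9, drew 15.5% from its strongest (total 52975, maximum 142). The shortest run, chr4:952607-967066 in 4p16.3, packed 8 peaks into 14459 bp with maxima of 8 to 17, and it was the only run with no peak above the list's median maximum. The weakest run, chr22:51038164-51066994 in 22q13.33, had totals of 2588 to 8506.

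Of the bands that hold the fused genes, 17q21.2, home of RARA, and 15q24.1, home of PML, each held 1 long run. The run of 17q21.2, chr17:38472055-38509754, had 12 peaks and a summed total of 166829, below the median run. Its strongest peak, chr17:38476060-38481245, had a total of 75785 and a maximum of 117 and gave 45.4% of the signal. Beside it chr17:38473665-38475732 had a total of 28735 and a maximum of 51. The other 10 were low, all at or below the list's median maximum, with totals of 3100 to 9768. The run of 15q24.1, chr15:74890381-74922344, had 8 peaks and a summed total of 80018. Each run is placed only by its band, and its distance from RARA or PML was not measured. NB4 carries the fused alleles of both genes, and whether copy number or the antibody's target in these bands moves with the signal was not tested.

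Bands of the markers planned for the promyelocyte and neutrophil lineage held no long run, or runs with a summed total of at most 273785. The median over all long runs was 182219. In 11p11.2, the band of SPI1, 3 runs held 8, 14 and 10 peaks, and the strongest of them, chr11:47396052-47437462, had a summed total of 273785. Its peaks chr11:47412330-47417841 (total 102834, maximum 70), chr11:47397345-47400864 (total 53413, maximum 67) and chr11:47408955-47412190 (total 35327, maximum 37) gave 70.0% of the signal. IRF1 and SRGN were not planned markers and were picked after the runs were seen. In 5q31.1, which holds IRF1, an interferon response factor gene, 9 peaks summed to 572761, led by chr5:131798050-131804376 with a total of 204225 and a maximum of 293. In 10q22.1, which holds SRGN, the gene of the granule proteoglycan serglycin, 5 long runs with 13, 10, 18, 12 and 18 peaks summed to 407444, 121220, 545059, 216695 and 628303. In 19q13.11, the band of the planned marker CEBPA, a granulocyte transcription factor gene, the only long run had 10 peaks and a total of 111641. The 3 long runs of 19p13.3, the band of the neutrophil elastase gene ELANE, summed to 196786, 137352 and 64882. The only long run of 14q11.2, the band of the transcription factor gene CEBPE, had 9 peaks and a total of 114338. No long run lay in 17q22, the band of the myeloperoxidase gene MPO. The same held for 1p34.3, the band of the receptor gene CSF3R, and 19q13.41, the band of the surface marker gene CD33.

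Long runs also stood in bands known for genes of other cell types. In 14q32.33, the band of the immunoglobulin heavy chain genes, the larger of 2 runs, chr14:106318679-106374901 held 13 peaks with a summed total of 218249 and no maximum above 65. In 7p14.1, a band of T cell receptor gamma genes, a run of 11 summed to 241984, and its peak chr7:38379796-38381421 reached a maximum of 382 within 1625 bp. The only run on chromosome 18, in 18q23, the band of the myelin gene MBP, held 10 peaks with a total of 271754. Apart from such bands, in 6p21.33, which holds the cytokine genes TNF, LTA and LTB, a run of 9 summed to 307387. A run of 12 in the same band summed to 512629 and was led by chr6:31525558-31530389 (total 217211, maximum 231). Genes named with a run in this and the paragraphs above, other than the sampled genes, share its band in the GRCh38 table, and the distance from gene to run was not measured. All but the planned lineage markers were picked after the runs were seen, from general knowledge of the map. All of them stand as landmarks of a band and not as targets. In 19p13.2 the band itself differs in length between the builds.

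Peaks of long runs were longer but typically lower than other peaks. Their median maximum was 18 (quartiles 12 and 38) against 22 (15 and 38) in the other 17244 peaks. Their median length was 1077 bp against 870 bp, and the median total was 6882 against 6417. The mean total was 20713 against 12656, since the strong end of the members reached further: the 90th percentile of total signal was 51280 in members and 27540 in the others. Without the strongest peak of each run, the remaining 2583 members had a median maximum of 17, a median total of 6134 and a mean total of 13605. No peak in the list had a total under 2577, so a low peak is listed only where it is long enough, and how far this limit moves with the lower height of members was not tested.

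The change with run size was gradual. From peaks with no neighbour within 10 kb, over runs of 2 to 3, 4 to 7 and 8 to 11, to runs of 12 or more, the median maximum was 23, 22, 20, 19 and 18. Median signal per base over the same classes was 7.95, 7.67, 7.07, 6.91 and 6.31, and median length 814, 884, 997, 1047 and 1125 bp. The 90th percentile of total signal went the other way, at 21957, 29718, 37595, 47720 and 55732. Just outside the limit, the 546 peaks in runs of exactly 7 had a median total of 7543 and a median maximum of 20. Just inside, the 536 peaks in runs of exactly 8 had 7121 and 20.

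**Figure D3:**
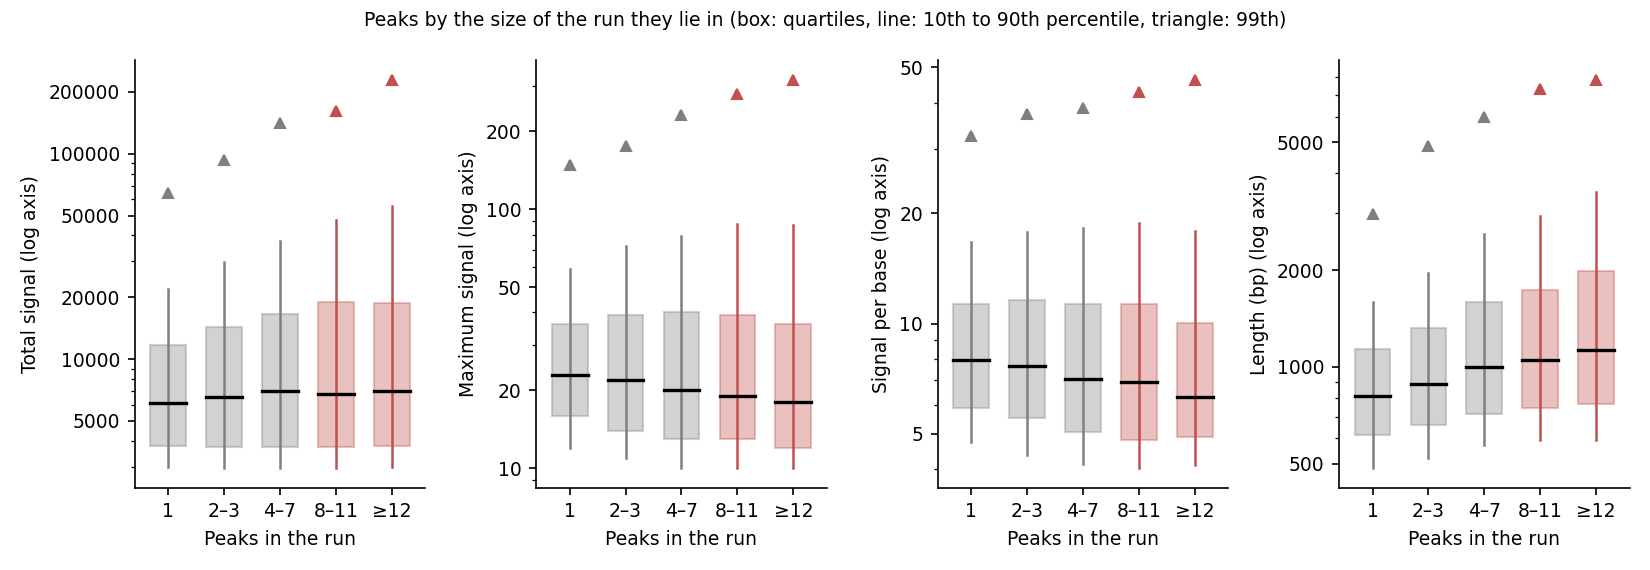
Total signal, maximum signal, signal per base and length (all on log axes) of peaks in runs of 1, 2 to 3, 4 to 7, 8 to 11 and 12 or more peaks, with medians (black), quartiles (boxes), 10th to 90th percentiles (lines) and the 99th percentile (triangles); runs of 8 or more are red. The median maximum declines from 23 to 18 across the classes while the 90th percentile of total signal climbs from 21957 to 55732.

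Members were more frequent than the list at the high end of total signal and at both ends of maximum signal. In the top 10% of all peaks by total signal (10.0% of the list) were 464 members, or 16.4%, from 201 runs. In the top 1% (1.00% of the list) were 83 members, or 2.93%, which made up 41.3% of those 201 peaks. By maximum signal 378 members, or 13.4%, were in the top 10%, which held 9.97% of the list after ties. At the low end 999 members, or 35.3%, had a maximum of 14 or less, against 25.7% of all peaks. Peaks in runs of 4 to 7 lay between the list and the members. Their shares were 13.9% and 1.78% in the top 10% and top 1% by total, and 12.4% in the top 10% by maximum. At a maximum of 14 or less they had 30.9%. The low end of total signal was alike: the lower quartile was 3759 in members and 3755 in all peaks. Peaks of 4 kb or longer numbered 187 among members, or 6.61%, against 2.12% of all peaks and 3.51% of peaks in runs of 4 to 7. Of the 10 peaks with the highest total in the list 6 were members, and of the top 100, 48 were. Still, 53 of the 245 runs held no peak above the 10% limit for maximum signal, 87 held exactly 1 and 105 held 2 or more.

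Height fell off within 1 peak of the strongest and then stayed level. The strongest peaks of the 245 runs had a median maximum of 114 (quartiles 63 and 177) and a median length of 3356 bp. The 445 peaks directly beside them, at a median distance of 1237 bp, had a median maximum of 17. At 2, 3, 4 and 5 steps the median was 16, 18, 17 and 17. In runs of 3 to 7 peaks the strongest had a median maximum of 52, and the neighbours at 1 and 2 steps had 17 and 17. The strongest peak was chosen for its total, so its own height is a description.

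**Figure D4:**
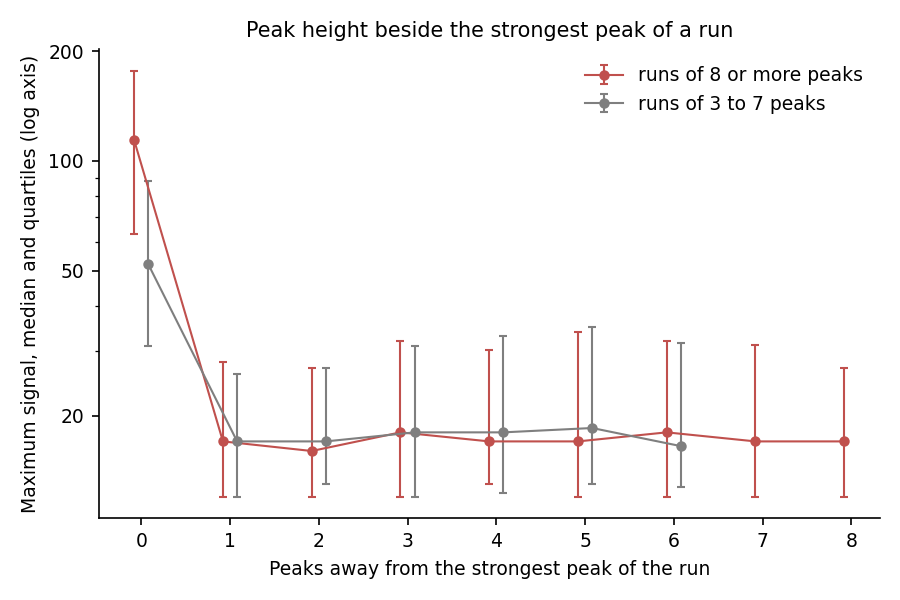
Median maximum signal (points; bars are quartiles; log axis) by the number of peaks from the strongest peak of the run, for runs of 8 or more peaks (red) and of 3 to 7 (grey). Beyond the strongest peak, at 114 and 52, the medians of both groups lie between 16 and 18.5.

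Spacing inside the runs was tight for most neighbours. The 2583 gaps had a median of 1483 bp (quartiles 604 and 3535 bp), 39.1% were at most 1 kb, and 75 were over 9 kb. In runs of 2 to 7 peaks the 6253 gaps had a median of 2199 bp, and 30.8% were at most 1 kb. Beyond its ends a run had its nearest outside peak at a median of 16313 bp, and in 42 runs that peak was within 12 kb. Another long run stood within 100 kb of 59 runs (24.1%). Groups of 3 or more such runs numbered 4. In 5p15.33 the group held 4 runs with 38 peaks, in 11q13.1 it held 3 with 41, in 19p13.2 it held 3 with 53, and in 19q13.33 it held 3 with 54. The 19q13.33 group includes a run of 21 with a summed total of 850996, of which chr19:49135604-49143458 gave 50.2% (total 426858, maximum 565).

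Chromosomes differed widely in the share of their peaks that lay in long runs. Chromosome 19 had 33 of the 245 runs and 425 members, which were 26.6% of its peaks and 40.3% of its signal. Chromosome 4 followed with 24.3% of its 547 peaks, chromosome 10 with 23.0% and chromosome 11 with 21.9%. On chromosome 8 none of 509 peaks was a member, and the longest run there had 6 peaks. Chromosome 18 had 1 run and chromosome 9 had 4, with 4.37% of its 847 peaks. Chromosome X had 3 runs, in Xp11.4, Xp11.23 and Xq28, and 17 of their 27 peaks overlapped a CpG island, against 189 (49.9%) of all 379 peaks of X. The islands come from a software sample that names no build. The karyotype of NB4 is not in the files, so copy number was not tested.

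**Figure D5:**
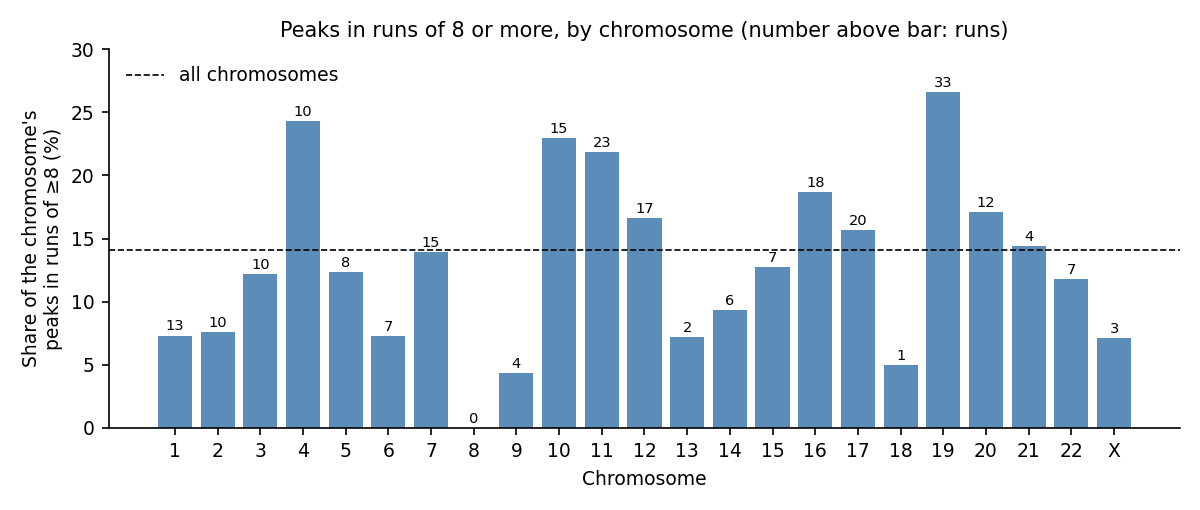
Bars give the percentage of each chromosome's peaks that lie in runs of 8 or more, with the number of runs above each bar and the share over all chromosomes, 14.1%, as a dashed line. Chromosomes 19, 4, 10 and 11 are the highest and chromosome 8 is at 0.

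The runs gathered in few bands. With centromeric, variable and stalk bands left out, 124 of 784 bands held a long run, and 8 bands with 5 or more held 59 of the runs. These 8 bands were rich in peaks, with 120 in 11q13.2 to 397 in 19p13.2. Members were 21.4% of the peaks in 16p13.3 to 55.1% in 4p16.3, against 14.1% of all peaks. The part of peak density in this gathering was not tested. Band 19p13.2 led with 14 runs and 203 members, 51.1% of its peaks, and a summed total of 7524422. Band 4p16.3, near the short-arm end of chromosome 4, followed with 9 runs and 125 members, 55.1% of its peaks, so that 9 of the 10 runs of chromosome 4 lay there. With a summed total of 1979419 it was the third band by signal of its runs, and 5 of its 9 runs were above the median run. Its run of 25 peaks, chr4:980370-1051457, summed to 213113, with 22 of 25 peaks at or below the list's median maximum. The strongest run of the band was chr4:2787843-2845713, where 10 peaks summed to 598697 and 5 of them were 4 kb or longer. The bands 11q13.1 and 17q25.3 held 8 runs each, and 16q24.3, 10q22.1, 11q13.2 and 16p13.3 held 5 each.

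Nearly all members lay in pale-staining bands, and many near chromosome ends. Bands that are Giemsa-negative or of the palest positive stain held 2701 members, or 95.5%, against 83.5% of all peaks and 88.6% of peaks in runs of 4 to 7. Such bands are known to be gene-rich. Within 3 Mb of a chromosome end, 4.54% of the chromosomes' length, were 732 members, or 25.9%, against 15.0% of all peaks, and 60 of the 245 runs. The share near an end was 21.6% in runs of 4 to 7, 21.8% in runs of 8 to 11 and 29.9% in runs of 12 or more, so it was not particular to runs of 8 or more. Bands with a long run had a median of 12.8 protein-coding genes per Mb in the GRCh38 table, and bands without had 4.72. Gene density thus moved with the runs, and its part in them was not tested.

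The share of listed genes in a band with a long run varied between the lists, from 4 of 21 genes to 7 of 9. Of 18752 protein-coding genes in the bands used, 35.6% lay in a band with such a run. For the phagocyte NADPH oxidase, the enzyme of the respiratory burst, the count was 7 of 9, among them CYBA, NCF1, NCF4 and RAC2. CYBB and RAP1A lay in bands with no long run. The list named for neutrophil granule proteins had 15 of 22, among them ELANE, PRTN3 and AZU1 of the serine protease family, all in 19p13.3. It also counts S100A8 and S100A9 in 1q21.3, whose products are mainly cytosolic. Leukocyte integrins and adhesion molecules had 7 of 14. Band 19p13.2 was left out of these counts because its length differs between the builds, and it holds another 6 genes of that list (ICAM1, ICAM3, ICAM4, ICAM5, MYO1F and PRAM1), with which the count is 13 of 20. The lists were chosen with earlier results of these data known. That band holds the strongest run and the run with the most peaks, so the higher count is a description only. MYO1F, a myosin gene, and PRAM1, an adaptor gene, do not encode adhesion molecules. Cytokine and JAK-STAT signalling had 12 of 23, without TYK2 of that band. Myeloid and hematopoietic transcription factors had 13 of 34, retinoid receptors and metabolism 6 of 22, with RARA, RARG and RXRA among them, and co-repressors and chromatin modifiers 10 of 24. The list for PML bodies and SUMO modification had 11 of 19, NF-kappaB and TNF response 9 of 23, and cell cycle and apoptosis 4 of 21. Ribosomal and housekeeping genes had 19 of 30. Of markers of other cell types, T and B lymphocyte markers had 10 of 17, neuronal markers 6 of 17 (35.3%) and hepatocyte markers 7 of 19 (36.8%). The last pair of shares lay just below the lowest of the myeloid lists above, 38.2%, and near the 35.6% of all protein-coding genes. With bands of unequal length kept, the shares were 40% for neuronal markers, 40% for hepatocyte markers and 40.5% for myeloid and hematopoietic transcription factors. Lymphocyte markers, at 58.8%, and housekeeping genes, with 19 of 30, lay within the range of the myeloid lists. The retinoid list, with 6 of 22, and the cell cycle list, with 4 of 21, lay below the neuronal and hepatocyte markers. The lists thus did not separate by lineage, and no test was made of these differences. Genes of a list often share a band and are not independent, a band can be several Mb wide, and the distance from gene to run was not measured.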

How the data were processed

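CUT&Tag peaks of NB4 cells with a PML-RARA antibody (1 group, 2 replicates) were analysed from 1 merged list. The submitters' processing notes name Trimmomatic, Bowtie2, SAMtools, bedtools and SEACR with the build hg19. No versions, calling threshold, control track or way of merging could be read from labels or file header. The list, deposited by the authors, gives 2 signal columns, taken as the total and the maximum signal of SEACR, because the first is above the length in all 20085 rows and at most length times maximum. No scaling is stated and the depth is unknown. Start and end are printed as in the list and may count from 0.

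Peaks on chromosomes 1 to 22 and X were joined with pandas 2.3.3; the joining was tested on simulated data. The members and gene lists were chosen with earlier results of these data known. With no value per replicate, no test was made. The full hg19 annotation that the planned counts of gene starts need was not used here: gene starts came from samples in pyranges 0.1.4 and GenomicFeatures 1.54.1, and listed genes were instead counted by band. The pyranges models name no build and were read as hg19; 5 of 376 began within 100 bp of their GRCh38 start. Bands of both builds came from circlize 0.4.16 and were matched by name; 741 bands of similar length were used for gene counts. The rule for named genes took sampled genes that start in a run; other genes named are landmarks outside it. Of the motif promoters, those of chromosome 8 were left out. Alternatives changed the gap, the run size and the peaks joined.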

Additional observations from a re-analysis of the deposited data

How the results depend on the processing

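Most values moved with the rule that defines a run. With a gap of at most 5 kb, 119 runs held 1241 peaks, 10.5% of the signal and 0.703% of sampled gene starts, with a median span of 28.5 kb and a median total of 7093. With 20 kb the values were 416 runs, 5316 peaks, 35.8%, 5.62%, 57.9 kb and 6914. With at least 6 peaks there were 471 runs with 4262 peaks, 30.1% of the signal, 3.04% of starts, a median span of 29.5 kb and a median total of 7028. With at least 10 peaks there were 134 runs with 1896 peaks, 14.7% of the signal, 0.937% of starts, 48.6 kb and 6964. Peaks merged first where they lay within 1 kb gave 94 runs, 972 peaks, 10.6%, 0.937%, 54.2 kb and 10260. Leaving out the lowest 25% by maximum signal gave 75 runs, 744 peaks, 8.18%, 0.703%, 42.5 kb and 13072, so most runs did not reach 8 without their low peaks. Leaving out peaks under 500 bp changed the counts little, with 224 runs and 2559 peaks, 20.1% of the signal, 1.87% of starts, 40.3 kb and 7462. The share of runs that hold a sampled start was 4.08% with and without 2 kb on either side. Keeping bands of unequal length, an alternative chosen after seeing the data, moved the integrin and adhesion list from 7 to 13 genes and each of the other 13 lists by at most 2. The run of 39 peaks in 19p13.2 overlapped the longest run in each of 4 of these settings; with 20 kb the longest was chr16:88699527-88938244, with 52 peaks. No paired analysis was possible because the list has 1 group and no value per replicate, and leaving out a replicate could not be run. Depth is unknown, so how many weak peaks were missed cannot be given.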
